A study of Mus musculus with 6 samples.

Results

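Interferon-stimulated genes are the genes that cells switch on when an interferon, a secreted antiviral cytokine, binds its receptor. A set of 31 of them was followed in mouse lung, 23 known mainly for their response to type I interferon and 8 known mainly for their response to interferon gamma, here called interferon-gamma-type genes. They were found by gene symbol, or by an older symbol through the accession, among 41174 probes. Of the 31 genes, 30 had a probe and 29 were measured well enough to be compared, among 20237 such genes in all. The probe of Oas1g was well above background on 0 of 6 arrays, and Ddx60 had no matched probe. All 29 compared genes, 21 type I and 8 interferon-gamma-type, were well above background on all 6 arrays and saturated on none.

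The lungs came from untreated male mice 8 weeks old, 3 Nogo-A/B knockout (lungs KO 1, KO 11 and KO 12) and 3 wild-type (lungs WT 11, WT 12 and WT 13), in a study of Nogo in asthma. Nogo-A and Nogo-B are the long protein products of the reticulon gene Rtn4. The strain, the deleted part of Rtn4 and the housing of the mice are not given in the sources used here. Each lung RNA was labelled with Cy3 and hybridised to its own Agilent array of 60-base probes, and the design text calls each lung an individual biological replicate. Values are log2 signals with that array's 75th percentile set to 0.

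Type I interferons signal through a receptor pair and the kinases Jak1 and Tyk2 to a complex that holds Stat2 and Irf9 and binds interferon-stimulated response elements in the promoters of target genes. Interferon gamma acts through another receptor pair and on other promoter elements, the gamma-activated sites. The products range from proteins that block virus replication to GTPases that attack vacuoles of intracellular microbes and enzymes that make peptides for MHC class I. Uninfected lung keeps a low tonic level of this programme.

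The share of probes well above background ranged from 68.9% to 78.0% per array, and the 75th percentile signal lay between 1086 and 2343. One Rtn4 probe read -8.03, -8.46 and -8.29 in the knockout lungs, against -3.03, -2.89 and -2.27 in the wild-type lungs, and was well above background on 0 knockout and 3 wild-type arrays. The brightest Rtn4 probes, a pair well above background on all 6 arrays, read 1.099 and 1.08 in KO 1, -0.71 and -0.50 in KO 11 and -1.79 and -1.96 in KO 12, against 1.47 to 2.36 in the wild-type lungs. All knockout values of the pair were below all wild-type values, with KO 1 nearest to them. The deleted part is not known here, so whether these probes lie within it was not tested. All markers of type 1 and type 2 alveolar cells, club cells and endothelium were measured, which fits the labelled tissue. The arrays were scanned on 2 days. Day 2 held KO 12, WT 11 and WT 12 on 1 slide, and day 1 held KO 1 and WT 13 on a slide and KO 11 on another, so slide and day overlap and cannot be fully told apart. Arrays of 1 day correlated at 0.972 to 0.994 across genes and arrays of different days at 0.950 to 0.965, where genes are not independent replicates. In a fit with genotype in the model, 2225 genes (11% of all genes) differed between the days at an adjusted p under 0.05. The spread behind every p-value below is that between single lungs, and 3 arrays a group limit how precise each value is.

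The promoters of these genes are shown because they carry a feature that was not used to choose the genes. The windows run from 250 bases before to 50 after the start of each gene (RefSeq, GRCm38.p6) and were available for 23 of the 29 compared genes. The core of an interferon-stimulated response element was searched as GAAANNGAA on both strands, counting overlapping matches. It was present in 15 of the 23 windows (65.2%, exact Clopper-Pearson interval 42.7% to 83.6%), against 9.76% of 27025 genes. The interval treats the genes as independent, although several belong to the same family. The genes were chosen as known interferon targets, so the share describes the set and is not a separate test of it. Of the type I genes 11 of 16 held it, and of the interferon-gamma-type genes 4 of 7 held it. At least 2 matches were held by 9 windows, against 0.74% of all genes. The gamma-activated site was searched as TTCNNNGAA, which reads alike on both strands, and was present in 5 of 23 windows (21.7%, interval 7.5% to 43.7%), against 9.55% of all genes. A match is a description of letters and not a measured binding site. Of the genes whose lung values are given further on, 6 are shown, picked because a match lies before the start. The windows of Irf7, Psmb9, Tap1 and Oasl1 held 0 matches, and the match of Ddx58 did not lie wholly before the start. In the stretches below every match to GAAANNGAA or its reverse complement TTCNNTTTC is in capitals. The 6 stretches, of 100 bases each, run 5′ to 3′ along the strand of the gene. They lie at chr8:71537543-71537642 (minus strand, Bst2), chr5:120777675-120777774 (minus, Oas3), chr12:26456518-26456617 (minus, Rsad2), chr11:58199456-58199555 (plus, Igtp), chr2:62646314-62646413 (minus, Ifih1) and chr10:128270248-128270347 (plus, Stat2).
Bst2: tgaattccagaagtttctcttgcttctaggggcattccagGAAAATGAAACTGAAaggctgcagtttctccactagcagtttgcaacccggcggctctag
Oas3: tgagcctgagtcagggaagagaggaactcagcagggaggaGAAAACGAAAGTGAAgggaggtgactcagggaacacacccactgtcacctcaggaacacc
Rsad2: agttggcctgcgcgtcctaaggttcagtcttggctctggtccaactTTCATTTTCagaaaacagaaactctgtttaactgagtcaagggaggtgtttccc
Igtp: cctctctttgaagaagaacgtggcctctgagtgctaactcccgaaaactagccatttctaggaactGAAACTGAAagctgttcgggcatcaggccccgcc
Ifih1: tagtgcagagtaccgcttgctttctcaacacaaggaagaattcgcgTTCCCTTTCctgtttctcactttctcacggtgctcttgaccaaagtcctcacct
Stat2: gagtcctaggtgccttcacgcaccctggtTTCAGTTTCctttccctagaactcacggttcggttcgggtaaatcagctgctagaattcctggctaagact
In Bst2 and in Oas3 a pair of matches shares 3 bases and forms 1 longer run. Among matches before the start, the nearest begins 34 bases before it in Igtp, 69 in Oas3, 112 in Ifih1, 119 in Rsad2, 124 in Bst2 and 221 in Stat2. The window of Ifih1 holds another match after the start, which is not shown.

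The main question was whether the interferon-stimulated genes of the lung differed with the loss of Nogo-A and Nogo-B. None of the 29 genes reached an adjusted p under 0.05 by limma, and neither did any other of the 20237 genes (0% of all genes). The adjusted p was 0.9998 for each of the 29. At an unadjusted p under 0.05 there were 0 of the 29 genes, against 191 genes in all (0.944%), and with scan day as a block again 0 of the 29 (2.1% of all genes). The smallest unadjusted p among them was 0.164, and the knockout and wild-type values overlapped for all 29. Knockout lungs were wholly higher for 2.4% of all genes and wholly lower for 1.6%. The differences, knockout minus wild type, ran from -0.93 for Oas3 to 0.44 for Ddx58, with a median standard error of 0.29. Differences of about that size could not be detected with 3 lungs a group.

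The 2 classes lay on opposite sides of 0. Of the type I genes 17 of 21 had a lower mean in knockout lungs (median difference -0.19, 47.8% of all genes lower), while 6 of 8 interferon-gamma-type genes had a higher one (median 0.17, 52.2% of all genes higher). Over all genes the median difference was 0.01. In the fit with a scan-day block the medians were -0.06 for the type I genes and 0.20 for the interferon-gamma-type genes. Without WT 12 the type I median was 0.02, with 10 of 21 genes lower. Without WT 13 the interferon-gamma-type median was 0.02, with 4 of 8 genes higher, and the type I median was -0.44. Without KO 11 the interferon-gamma-type median was 0.04.

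**Figure D1:**
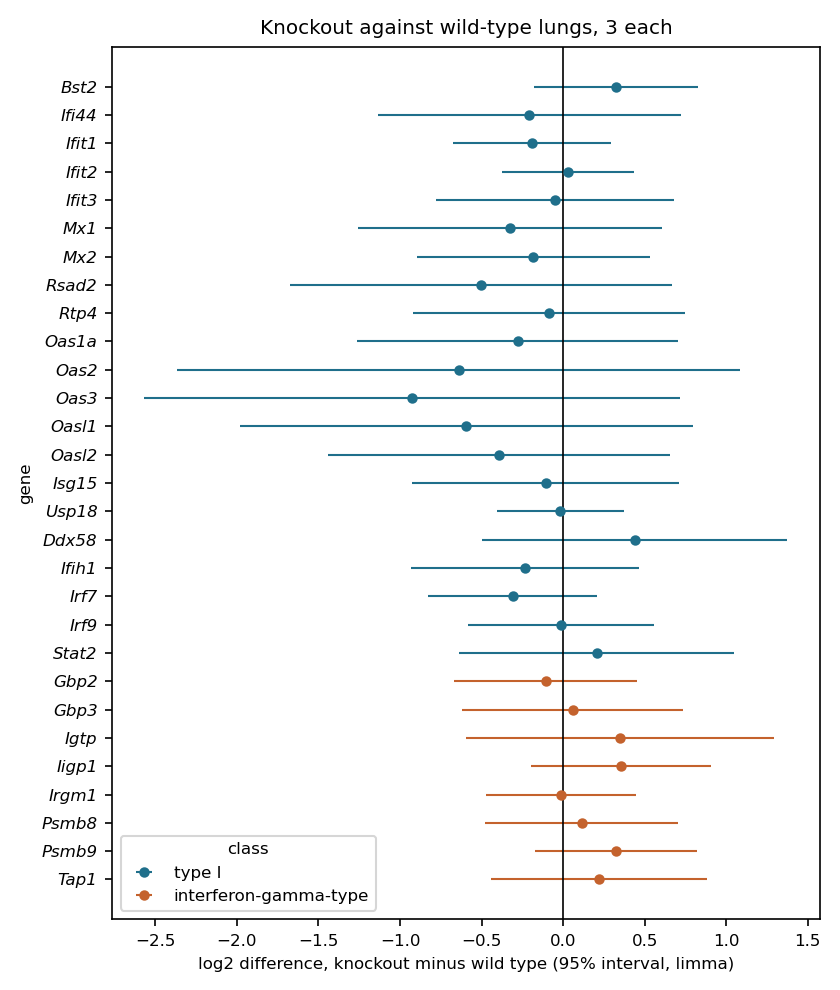
Difference in log2 signal, knockout minus wild type, for 29 interferon-stimulated genes (points, with 95% intervals from limma over 3 knockout and 3 wild-type lungs; colour marks the class). Every interval crosses 0, and the widest belong to Oas2 and Oas3.

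Among the antiviral effectors, 7 of 9 had a lower mean in knockout lungs, with a median difference of -0.18. Bst2, which encodes tetherin, a membrane protein that holds budding virions on the cell (probe at mm7 chromosome 8, 70001866 to 70001925), measured 3.94, 4.13 and 3.59 in KO 1, KO 11 and KO 12, against 3.66, 3.67 and 3.37 in WT 11, WT 12 and WT 13. Both knockout lungs of day 1 were above all wild-type lungs, and KO 12 lay within the wild-type range. Bst2 averaged 3.89 ± 0.28 in knockout and 3.56 ± 0.17 in wild-type lungs (SD, n = 3 each), a difference of 0.32 (SE 0.21).

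Rsad2, which encodes viperin, a radical enzyme that makes a chain-terminating nucleotide, was more variable (chromosome 12, 24278814 to 24278873). It measured -0.08, 0.48 and 0.96 in the knockout lungs, against 1.53, 1.36 and -0.01 in the wild-type lungs. WT 11 and WT 12 were above all knockout lungs, while WT 13 was near the lowest knockout lung. The difference was -0.51 (SE 0.48), and all 3 of its probes gave a negative difference, between -0.51 and -0.14.

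The RNA-binding proteins Ifit1, Ifit2 and Ifit3, which sequester viral RNA, differed by -0.19, 0.03 and -0.05. The dynamin-like GTPases Mx1 and Mx2 differed by -0.33 and -0.18, with standard errors of 0.38 and 0.29. Ifi44 differed by -0.21 and Rtp4, a chaperone of taste and olfactory receptors, by -0.09. Each of these 7 intervals included 0.

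The oligoadenylate synthetase family, which answers double-stranded RNA with a messenger that activates RNase L, showed the widest spread between lungs. The 2 like proteins Oasl1 and Oasl2 belong to the same family, and all 5 compared genes lie on chromosome 5. All 5 had a lower mean in knockout lungs, with a median difference of -0.59, and 0 of the 5 passed the test. Their ranges over the 6 lungs ran from 1.30 for Oas1a to 2.30 for Oas2, against a median range of 0.80 over all genes. A range above 1 was seen for 12 of the 29 genes, all 5 of the family among them, and for 36.5% of all genes. A range above 2 was seen for Oas2 and Oas3 alone among the 29, and for 11.7% of all genes.

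Oas3 (mm7 chromosome 5, 119987575 to 119987634) measured -4.14, -2.22 and -3.97 in KO 1, KO 11 and KO 12, against -1.92, -2.03 and -3.60 in WT 11, WT 12 and WT 13. KO 11, WT 11 and WT 12 were high, and the other lungs were low. The Oas3 mean was -3.44 ± 1.06 in knockout and -2.52 ± 0.94 in wild-type lungs (SD, n = 3 each), a 1.90-fold lower level (difference -0.93, 95% interval -2.57 to 0.71). The Oas3 difference was -0.58 without KO 1, -1.54 without KO 11, -1.47 without WT 13 and -0.55 under normexp. Oas2 (119964411 to 119964470) measured -1.02, 1.11 and -0.46 in the knockout lungs, against 0.89, 1.28 and -0.63 in the wild-type lungs. The same 3 lungs were high, and the difference was -0.64 (SE 0.71), from -0.19 without KO 1 to -1.255 without KO 11. Oasl1 (114158380 to 114158439), which has lost synthetase activity and restrains translation of Irf7 in mice, measured -2.20, -1.01 and -1.98 in the knockout lungs, against -0.50, -0.62 and -2.30 in the wild-type lungs. It differed by -0.59 (SE 0.57), while Oas1a differed by -0.28 and Oasl2 by -0.39. A second probe of Oas2 and of Oas3 gave differences of -0.91 and -0.62.

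The median of the 5 genes, each centred on its mean over 6 lungs, was -0.77, 0.43 and -0.55 in KO 1, KO 11 and KO 12, against 0.70, 0.82 and -0.78 in WT 11, WT 12 and WT 13. The high lungs KO 11, WT 11 and WT 12 came from both genotypes and both scan days. Markers of neutrophils, blood granulocytes that enter lung tissue, were set beside them, since whole lung holds the blood left in its vessels. Of the 7 markers 6 were measured, Ly6g was not, and their centred median was -1.53, 0.70 and -1.55 in the knockout lungs, against 1.61, 1.06 and -0.37 in the wild-type lungs. The lungs with the 3 highest values were KO 11, WT 11 and WT 12 for both lists. This order was not particular to neutrophils. The same 3 lungs were highest for the monocyte markers, at centred medians of 0.28, 0.40 and 0.57. They were also highest for the type I genes, the interferon-gamma-type genes, and the interferon receptors and nucleic acid sensors described below. All 6 neutrophil markers had a lower mean in knockout lungs (median difference -1.60), and their summed signal, as multiples of the 75th percentile, was 42.7 to 194 in knockout and 83.3 to 307 in wild-type lungs. None passed the adjusted threshold, and Mmp9 had an unadjusted p of 0.0415. Of 6 monocyte markers 5 were measured, and their summed signal was 5.35 to 7.68 in knockout and 6.30 to 9.47 in wild-type lungs. Of 5 red cell markers 4 were measured, as blood left in the vessels also holds red cells. The red cell centred median was -0.18, -0.08 and 0.41 in KO 1, KO 11 and KO 12, against 0.13, -0.14 and -0.21 in WT 11, WT 12 and WT 13. It was highest in KO 12, where the neutrophil median was lowest. The part of these cells in the Oas values was not tested, and in whole lung fewer cells of a type and less RNA per cell cannot be told apart.

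**Figure D2:**
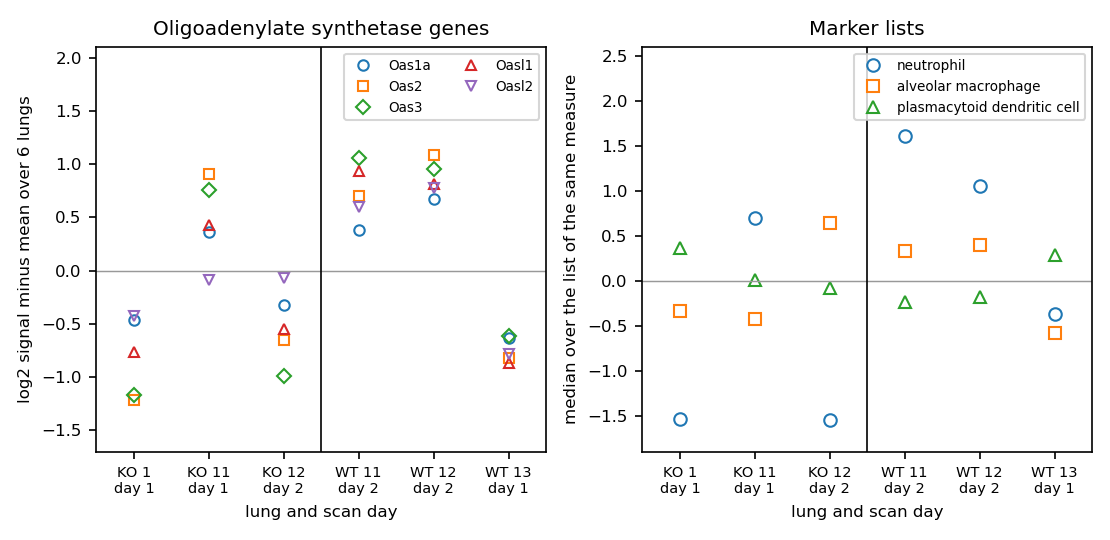
Left, log2 signal of 5 oligoadenylate synthetase genes minus each gene's mean over 6 lungs; right, the median of the same measure over the measured markers of 3 cell types, with lungs along the x axis, knockout left of wild type, and the scan day under each. The Oas genes and the neutrophil list are highest in KO 11, WT 11 and WT 12.

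The ubiquitin-like modifier Isg15 and its deconjugating enzyme Usp18 differed by -0.11 (SE 0.34) and -0.02 (SE 0.16). Usp18, which also blocks the type I receptor, was the steadiest of the 29 genes, with a range of 0.225 over the 6 lungs. The sole Isg15 probe is placed by the array file on mm7 chromosome 17, whereas RefSeq has Isg15 on chromosome 4. The array file names the probe Isg15 by accession, and no genome was used here to place it, so the identity of the measured transcript is less certain than for the other genes.

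The RNA helicases Ddx58 (RIG-I) and Ifih1 (MDA5) sense viral RNA in the cytosol. Ddx58 (mm7 chromosome 4, 40348348 to 40348407) measured 0.22, -0.14 and -0.93 in the knockout lungs, against -1.06, -0.96 and -0.15 in the wild-type lungs. The 3 lungs of day 2 were low whatever their genotype. The difference of 0.44 (SE 0.39) was 0.13 in the fit with the scan-day block. Ifih1 (chromosome 2, 62528113 to 62528172) measured 0.86, 0.63 and 1.32 in the knockout lungs, against 1.31, 1.49 and 0.71 in the wild-type lungs, a difference of -0.23 (SE 0.29). Here the 3 lungs of day 2 were high, and the difference adjusted for scan day was -0.02. The sign of the genotype difference varied between the probes of both genes, and of no other among the 12 genes that had more than 1 probe above background.

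Of the transcription factors, Irf7, which amplifies interferon production, had the lowest unadjusted p (mm7 chromosome 7, 137682028 to 137682378). It measured -1.32, -0.81 and -1.39 in the knockout lungs, against -0.76, -0.83 and -0.998 in the wild-type lungs. KO 1 and KO 12 were below all wild-type lungs, and KO 11 lay among them. The difference was -0.31 (SE 0.21), and -0.33 with scan day as a block. Stat2 (chromosome 10, 127793622 to 127793681) measured 0.99, 1.18 and 0.23 in the knockout lungs, against 0.24, 0.43 and 1.12 in the wild-type lungs. Its difference of 0.20 (SE 0.35) was -0.07 in the fit with the scan-day block. Irf9 differed by -0.01.

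The interferon-induced GTPases comprised the guanylate-binding proteins Gbp2 and Gbp3 and the immunity-related GTPases Igtp, Iigp1 and Irgm1, which act on vacuoles of intracellular parasites and bacteria. Of the 5, 3 had a higher mean in knockout lungs, with a median difference of 0.06. Igtp (mm7 chromosome 11, 58288970 to 58289029) measured 3.35, 4.44 and 3.07 in the knockout lungs, against 3.50, 3.35 and 2.96 in the wild-type lungs. KO 11 alone stood above the wild-type lungs, and the difference of 0.35 (SE 0.39) was -0.06 without it. Iigp1 measured 2.56, 2.59 and 2.24 in the knockout lungs, against 2.27, 2.32 and 1.73 in the wild-type lungs. Both knockout lungs of day 1 were above all wild-type lungs, and the difference was 0.36 (SE 0.23). Gbp2 differed by -0.11, Gbp3 by 0.06 and Irgm1 by -0.01.

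The 3 genes of MHC class I peptide supply lie on chromosome 17, and all 3 had a higher mean in knockout lungs. Psmb9, a catalytic subunit of the immunoproteasome, had the lowest unadjusted p of the 29 genes (probe at mm7 chromosome 17, 32262147 to 32262206). It measured 3.11, 3.20 and 2.66 in the knockout lungs, against 2.79, 2.66 and 2.54 in the wild-type lungs. KO 1 and KO 11 were above all wild-type lungs, and the difference was 0.32 (SE 0.20). Tap1, a chain of the peptide transporter (32273751 to 32273810), measured -0.11, 0.39 and -0.35 in the knockout lungs, against -0.35, -0.51 and 0.13 in the wild-type lungs. Its difference was 0.22 (SE 0.27), and 0.05 with scan day as a block. Psmb8, another immunoproteasome subunit, differed by 0.11, and by 0.20 in its second probe.

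**Figure D3:**
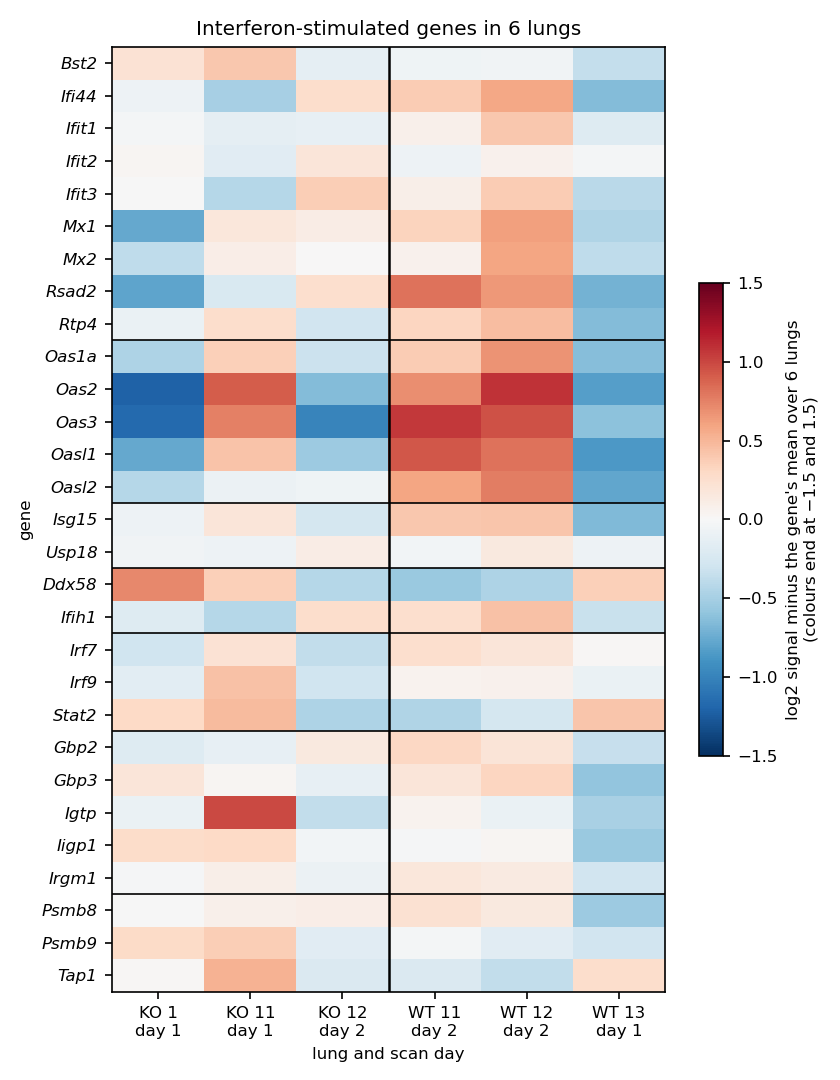
Heat map of 29 interferon-stimulated genes (rows, grouped by role between the lines) in 6 lungs (columns, knockout left of wild type, with the scan day), coloured by log2 signal minus the gene's mean over the 6 lungs. WT 13 is the lowest lung for 16 genes and WT 12 the highest for 13.

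The level of the whole set also varied from lung to lung within each genotype. The median centred value of the type I genes was -0.16, 0.18 and -0.14 in KO 1, KO 11 and KO 12, against 0.26, 0.44 and -0.41 in WT 11, WT 12 and WT 13. For the interferon-gamma-type genes it was 0.01, 0.20 and -0.10 in the knockout lungs, against 0.11, 0.085 and -0.41 in the wild-type lungs. The lowest and the highest median of the type I genes therefore both belonged to wild-type lungs. WT 13 was the lowest of the 6 lungs for 16 of 29 genes, against 18.9% of all genes, and the highest for 0. WT 12 was the highest for 13 of 29, against 9.46% of all genes, 12 of the 13 being type I genes.

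The genotype difference was then taken within each scan day, as both days held both genotypes. Day 2 compares a single knockout lung, KO 12, with WT 11 and WT 12, and day 1 compares KO 1 and KO 11 with a single wild-type lung, WT 13. Within day 2, 24 of 29 genes were lower in the knockout lung (39.8% of all genes). Within day 1, 26 of 29 were higher in the knockout lungs (45.4% of all genes). A negative difference in day 2 with a positive one in day 1 was found for 22 of 29 genes and for 24.8% of all genes. The knockout arrays were wholly below in day 2 and wholly above in day 1 for 16 of 29 genes, 9 type I and 7 interferon-gamma-type (14.2% of all genes). The opposite arrangement held for 0 of the 29 and for 24.6% of all genes. By sign alone the reverse was found for Ifit2, 1 of 29, and for 39.6% of all genes.

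**Figure D4:**
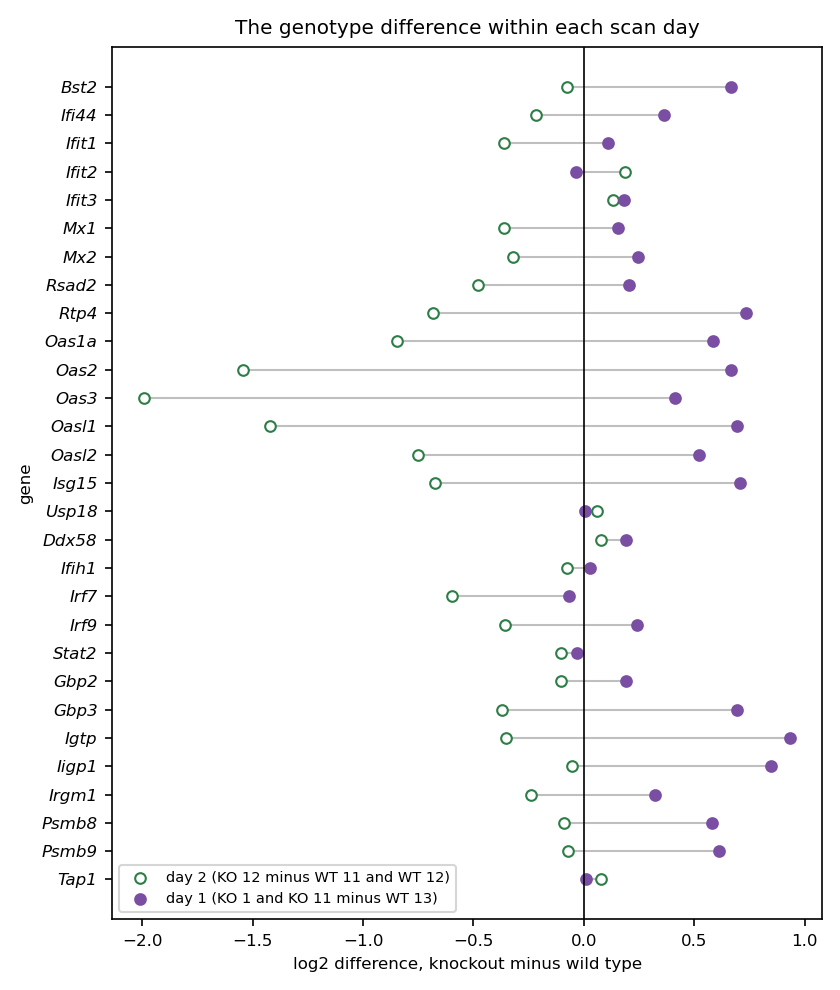
Difference in log2 signal, knockout minus wild type, within scan day 2 (open points) and within scan day 1 (filled points), for 29 interferon-stimulated genes. In 22 genes the day 2 point lies left of 0 and the day 1 point right of it.

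Of the 7 groups of roles, the Oas family differed most between the days, with a median genotype difference of -1.42 within day 2 and 0.59 within day 1. Oas3 differed by -1.99 within day 2 and by 0.42 within day 1, and Oas2 by -1.55 and 0.67 in the same order. Among the interferon-gamma-type genes, Igtp differed by -0.35 within day 2 and 0.93 within day 1, whereas Tap1 differed by 0.08 and 0.01. The change of the genotype difference between days (day 2 minus day 1) was tested with an interaction term, which passed an adjusted p of 0.05 for 0 genes of 20237 (0%). At an unadjusted p under 0.05 there were 8 of the 29 genes (11.6% of all genes), namely Bst2, Gbp3, Iigp1, Isg15, Oasl2, Psmb8, Psmb9 and Rtp4. All 8 terms were negative, and 4.03% of all genes had a negative term at that unadjusted level. The lowest p was that of Isg15, with a term of -1.38 (SE 0.27, unadjusted p = 0.00735, adjusted p = 0.378). Each of these contrasts rests on 1 single lung a day, so the level of WT 13 or KO 12 and a change with the day cannot be told apart.

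Between the scan days themselves, 2 of the 29 genes passed an adjusted p of 0.05, both lower on day 2 (8.74% of all genes were called lower and 2.26% higher). The days did not overlap for 8 of 29 genes higher on day 2 (20% of all genes) and for Ddx58, Stat2 and Tap1 lower on day 2 (19.5% of all genes). Stat2 measured 0.23, 0.24 and 0.43 in KO 12, WT 11 and WT 12 on day 2, against 0.99, 1.18 and 1.12 in KO 1, KO 11 and WT 13 on day 1. All 3 lungs of day 2 were below those of day 1, and the difference was -0.82 (SE 0.14, adjusted p = 0.0275). Ddx58 likewise did not overlap, with a difference of -0.91 (SE 0.16, adjusted p = 0.0276). Both calls were absent under median scaling, where the differences were -0.52 for Stat2 and -0.61 for Ddx58, and also without any 1 of KO 1, KO 12, WT 11, WT 12 and WT 13, where 0 of the 29 genes passed. Without KO 11 there were 4 (12.2% of all genes), Mx1, Rsad2, Stat2 and Ddx58. In the fits without another lung, 3.08% to 7.01% of all genes passed. Over the 6 fits that each left out a lung, the differences ranged from -0.86 to -0.77 for Stat2 and from -0.98 to -0.83 for Ddx58.

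The probes of Ddx58 did not move together. The brightest, used above, differed by -0.91 between the days, and the other 3 by 0.65, 0.23 and -0.96. The probe that differed by 0.65 measured -1.24, -1.15 and -1.25 on day 2 (KO 12, WT 11, WT 12), against -1.96, -1.91 and -1.81 on day 1 (KO 1, KO 11, WT 13). Of the 12 genes with several probes, 6 had probes that differed in sign between the days, Ddx58, Ifi44, Ifih1, Ifit2, Irf9 and Oas2. The Stat2 value rests on 1 probe.

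**Figure D5:**
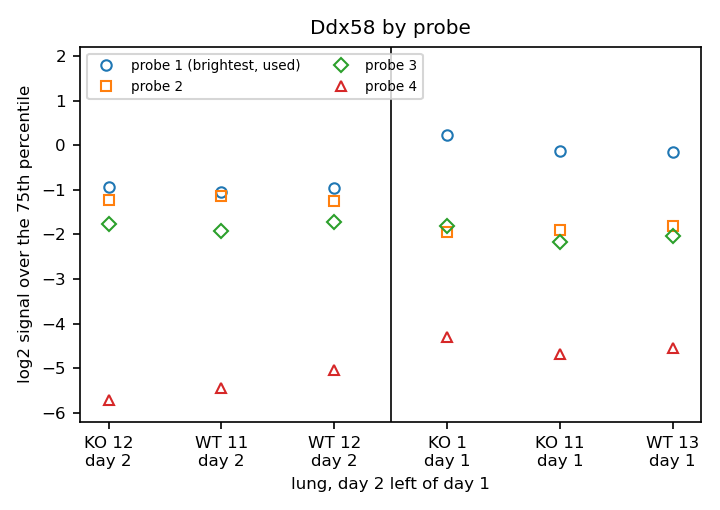
Log2 signal of 4 Ddx58 probes over that array's 75th percentile, in the 3 lungs of scan day 2 (left of the line) and the 3 of day 1. The brightest probe and probe 4 lie lower on day 2, and probe 2 lies higher.

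Higher on day 2 at an unadjusted p under 0.05, without passing the adjusted threshold, were Rsad2, Ifih1, Ifi44, Ifit3, Gbp2 and Oasl2, 6 of 29 genes against 12.2% of all genes. Lower at that level were Ddx58, Stat2 and Tap1, 3 of 29 genes against 15.5% of all genes. Rsad2 measured 0.96, 1.53 and 1.36 on day 2 (KO 12, WT 11, WT 12), against -0.08, 0.48 and -0.01 on day 1 (KO 1, KO 11, WT 13), a difference of 1.11 (adjusted p = 0.0540). Ifih1 differed by 0.63 (adjusted p = 0.0592). The median day difference of all genes moved with the scaling and was 0.34 under median scaling, 0.13 under quantile normalization and 0.11 with normexp, against 0.04 here. Rsad2 passed the adjusted threshold under all 4 other scalings tried (quantile, median, normexp and the authors' values). Under these, 8.02% (normexp) to 18.1% (median scaling) of all genes passed. Ifi44 passed under quantile normalization, median scaling and the authors' values, and Ifit3 and Ifih1 under median scaling. All 6 markers of alveolar macrophages were higher on day 2, 5 of them past the adjusted threshold (median difference 0.99), and their summed signal was 113 to 153 on day 2 and 64.9 to 97.5 on day 1. Their part in the values of Rsad2 and Ifih1 was not tested.

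The rest of the interferon pathway was taken from lists of related genes, and 0 of the measured genes in any of the lists passed the adjusted threshold between genotypes. Of 11 interferon ligands 4 were measured, 2 higher and 2 lower in knockout lungs, with Ifna9 at -0.24 and Ifna12 at -0.17. Ifnb1, the type I interferon of most tissue cells, was not among those measured. Of 6 receptor chains 5 were lower, with a median of -0.11, among them Il10rb, a chain of the interferon lambda receptor, at -0.21 (SE 0.19), and Ifnlr1, its partner, at -0.12 (SE 0.19). Of 10 genes of Jak-STAT signalling 7 were higher and 3 lower, including the feedback inhibitor Socs3 at -0.76 (SE 0.59) and the phosphatase Ptpn11 at 0.16 (SE 0.16). Of 7 interferon regulatory factors 4 were higher and 3 lower. Of 13 sensors and adaptors of nucleic acids 10 were lower, with the adaptor Myd88 at -0.37 (SE 0.27) and the endosomal receptor Tlr7 at -0.51 (SE 0.38).

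Other interferon-stimulated genes, outside the set, were spread on both sides of 0. Of 26 measured type I genes 17 were lower and 9 higher (47.8% and 52.2% of all genes), with a median of -0.11, and Ifitm1, which blocks virus entry, differed by -0.67 (SE 0.36). Of 14 measured interferon-gamma-type genes 9 were higher and 5 lower, with a median of 0.19. Within day 1 all 14 were higher in the knockout lungs (45.4% of all genes). Within day 2 all but Cxcl9, Gbp5 and Ciita were lower in the knockout lung (39.8% of all genes). The sole gene of these pathway lists at an unadjusted p under 0.05 in limma (0.944% of all genes) was the T cell chemokine Cxcl9 (adjusted p = 0.9998). It measured -3.36, -3.38 and -3.21 in the knockout lungs, against -3.76, -3.64 and -3.93 in the wild-type lungs. These did not overlap (knockout wholly higher for 2.4% of all genes), and Cxcl9 differed by 0.46 (SE 0.16). Its difference was 0.50 within day 2 and 0.56 within day 1. Of 12 further genes of MHC class I presentation 8 were higher, with H2-D1 at 0.36 (SE 0.22) and H2-T23 at 0.35 (SE 0.23). These class I genes are close paralogs, so their probes may share signal.

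Markers of plasmacytoid dendritic cells, the main producers of type I interferon among blood cells, were measured for all 6 genes. Their summed signal was 10.4 to 29.8 in knockout and 12.4 to 16.5 in wild-type lungs, and 4 of 6 were higher in knockout lungs. This sum is weighted to its brightest probes, Cox6a2, at a difference of 0.64 (SE 0.66), and Tcf4, at 0.01 (SE 0.21). Siglech, at a mean of -4.97 in knockout and -5.26 in wild-type lungs, added little to it. For T cells, a source of interferon gamma, the sums were 2.37 to 2.98 in knockout and 2.28 to 3.01 in wild-type lungs, and for natural killer cells, another, they were 2.06 to 2.84 in knockout and 1.997 to 2.71 in wild-type lungs. The T cell sum is weighted to its brightest probe, Cd8b1, at a difference of -0.38 (SE 0.30). Cd3d, a chain of the T cell receptor complex, measured -0.10, -0.59 and -0.55 in the knockout lungs, against -1.01, -0.85 and -0.86 in the wild-type lungs. These did not overlap (knockout wholly higher for 2.4% of all genes). The difference of 0.49 (SE 0.19) had an unadjusted p under 0.05 in limma (0.944% of all genes) and an adjusted p of 0.9998. Of the 6 T cell markers 4 were higher in knockout lungs, with a median of 0.07, and 2 were lower, Cd8b1 and Cd3e (-0.21). Cd4 was among the higher at 0.01. All 5 B cell markers had a higher mean in knockout lungs, with a median of 0.50. Their summed signals were 8.46, 5.20 and 5.76 in KO 1, KO 11 and KO 12, against 4.68, 5.04 and 5.74 in WT 11, WT 12 and WT 13. Between scan days 4 of these 5 were lower on day 2 (median -0.72). With scan day as a block the genotype differences ran from 0.08 for Cd79a to 0.60 for Pax5. None of these markers passed the adjusted threshold between genotypes, and their part in the values of the interferon-gamma-type genes and Cxcl9 was not tested.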

How the data were processed

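Total RNA of 6 lungs was hybridised to 1-colour Agilent arrays. The deposited scanner files give a processed intensity per spot. Their headers name Feature Extraction 9.5.1.1 as its source, and the submitters' processing notes give 9.1. Probe positions are on mm7, per the file headers. The authors' deposited table holds log2 values with column medians of 8.087 to 8.090. Its centring and scaling are not given in the sources used here, and it followed the mean spot signal with a Spearman correlation of 0.9995 to 0.9998 across 41174 probes. It served as an alternative.

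Control and outlier spots were removed, replicate spots averaged, and 30 probes flagged on an array dropped. The processed signal was put on a log2 scale and each array's 75th percentile subtracted. The brightest probe of a gene was used if it was well above background on at least 3 of 6 arrays. RefSeq accessions or symbols named 32719 probes, and 8455 kept the array's name. Gbp3, Irf9 and Irgm1 stand under the older names Gbp4, Isgf3g and Irgm in the array files.

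The genotypes were compared in R 4.3.3 by limma 3.58.1, using lmFit and eBayes with two-sided p-values and Benjamini-Hochberg adjustment over 20237 genes, without covariates and again with scan day as a block. The interaction fit leaves 2 residual degrees of freedom among arrays. The test was tried on simulated data. The genes, their classes, the lists and the tests were chosen with earlier results of these data known. Values on every lung are given for the 4 genes of each class with the smallest p, the 4 with the smallest adjusted p between scan days and the 4 with the widest range, and up to 2 genes a pathway list are named. Shared replicate numbers (11 and 12) were not taken as pairs in the main fit. The correlation of deviations from group means was -0.25 for number 11 and 0.42 for number 12. KO 12 and WT 12 shared a slide and a scan day, whereas KO 11 and WT 11 shared neither. These correlations therefore cannot tell pairing from scan day. Figures were drawn with matplotlib 3.10.9 in Python 3.11.15.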

Additional observations from a re-analysis of the deposited data

Results flagged for a closer look

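The genotype difference of both classes had opposite signs in the 2 scan days. The median difference of the type I genes, knockout minus wild type, was -0.3608 within day 2 and 0.2397 within day 1, and that of the interferon-gamma-type genes was -0.09697 within day 2 and 0.5953 within day 1. In both classes the median level of KO 12 lay below those of WT 11 and WT 12 on day 2, and those of KO 1 and KO 11 lay above that of WT 13 on day 1. The difference between days was not tested for the classes. For single genes the interaction term passed the adjusted threshold for 0 of 29.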

How the results depend on the processing

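The fits within a scan day hold a single lung of 1 genotype and are given here by difference alone. Under every alternative with at least 2 lungs a genotype, 0 of the 29 genes passed an adjusted p of 0.05 between genotypes. The number of all genes past it was 0, or 1 (authors' values, normexp, trended and robust variance) or 2 (median scaling, slide as a random block, array weights), and 0 to 1 when leaving out each lung. At an unadjusted p under 0.05 there were 10 of the 29 genes with array weights (20.8% of all genes), 9 within day 2 (19.1%), 1 within day 1 (2.21%), 2 with slide as a random block (3.57%) and 0 to 3 without each lung. Over the fits without each lung, the share of all genes at that unadjusted level ran from 0.455% without WT 11 to 7.28% without WT 13. The fit without WT 13 was the one with 3 of the 29 genes. With the replicate number as a block, a pairing that could not be checked apart from scan day, there was 1 of the 29 at that level, Oasl2 (3.12% of all genes). None of the 29 then passed the adjusted threshold. The type I median was -0.44 to 0.02 without each lung and 0.24 within day 1. The interferon-gamma-type median was 0.60 within day 1 and -0.10 within day 2. Its excess over the type I median, 0.36, was 0.21 (without WT 12) to 0.46 when leaving out each lung. Signs were compared here only for the genes with values given on every lung. Within day 1 they were opposite for Oas2 (0.67), Oas3 (0.42), Oasl1 (0.69), Rsad2 (0.21), Ifih1 (0.029) and Stat2 (-0.031). Within day 2 they were opposite for Bst2 (-0.074), Psmb9 (-0.0695), Iigp1 (-0.054), Igtp (-0.35) and Stat2 (-0.10). Over all 29 genes, 26 were higher in knockout lungs within day 1 (45.4% of all genes), against 10 in the main fit (52.2%). Within day 2, 24 of the 29 were lower (39.8% of all genes), against 19 in the main fit (47.8%). Igtp was -0.0605 (without KO 11) to 0.62 when leaving out each lung, and Stat2 was -0.067 with scan day and -0.017 with slide as a block. Between scan days, 3658 genes passed under median scaling and 623 to 2463 without each lung. Of the 29, 4 passed under quantile normalization (14% of all genes), median scaling (18.1%) and the authors' values (15%). Without each lung 0 to 4 of the 29 passed (3.08% to 12.2% of all genes). The causes were not tested. Normexp put 62.5% of all genes above 0. Oas1g, not well above background, could not be compared.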
